A study of Mus musculus with 16 samples.

Results

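Wild-type mouse embryonic stem (ES) cells treated with sodium chlorate were compared with untreated wild-type ES cells across all detected genes of an expression array. The samples were chosen by their labels alone: 4 chlorate arrays and 4 untreated arrays of the 16 arrays in the series, from 6 of its 12 cultures. Chlorate was given at 20 mM for 24 h. Cells given 5 µM SU5402, an inhibitor of the FGF receptor kinases, for 24 h served as a further set of 3 cultures, and the untreated cells received no inhibitor. All were CCE cells, a wild-type mouse ES line, grown on gelatin with serum and leukaemia inhibitory factor (LIF), the cytokine that keeps ES cells undifferentiated. No group received another sodium salt, so chlorate and the added sodium cannot be told apart, and 1 line, 1 dose and 1 time were sampled. Each group had 3 cultures and culture 3 was read on 2 arrays, which were averaged, so each value below is n = 3 cultures a group. The labels call the cultures biological replicates without saying whether they were grown apart, so p-values measure the spread between the cultures sampled. That spread was estimated over all 12 cultures of the series, among them 3 cultures of untreated Ndst1/2-/- ES cells that are not described here.

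Chlorate competes with sulfate for the enzyme that makes PAPS, the activated donor from which every sulfotransferase takes its sulfate group. Cells in chlorate therefore make undersulfated heparan sulfate, the sugar chain of cell-surface proteoglycans that holds FGF ligands against their receptors. In ES cells FGF4 acts through FGF receptors and the kinase ERK, which lowers naive pluripotency factors and prepares cells for differentiation. Chlorate also reaches other sulfated molecules, including chondroitin sulfate and sulfated tyrosines.

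The promoters of 6 genes are shown, so that the letters before the starts of genes with large changes can be seen. Gata2, Spic and Lrrc15 were the 3 leading increases, and Gbx2, Slc7a7 and Dusp6 came 2nd to 4th among the decreases. No promoter was found for Etv4, the leading decrease. Each sequence runs 5′ to 3′ on the gene's own strand, from 250 bases before to 50 bases after a RefSeq start on build GRCm38.p6. Capitals mark a motif found on either strand. Where a gene had several starts only the most upstream was used, 1 of 2 for Gata2 and 1 of 5 for Slc7a7.
Gata2, chr6:88193641-88193940, plus strand: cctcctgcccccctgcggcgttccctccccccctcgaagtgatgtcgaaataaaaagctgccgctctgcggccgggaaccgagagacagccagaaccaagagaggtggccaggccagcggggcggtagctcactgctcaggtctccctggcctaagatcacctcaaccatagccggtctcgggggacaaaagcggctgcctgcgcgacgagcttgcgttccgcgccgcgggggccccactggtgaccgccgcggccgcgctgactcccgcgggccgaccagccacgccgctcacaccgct
Spic, chr10:88682974-88683273, minus strand: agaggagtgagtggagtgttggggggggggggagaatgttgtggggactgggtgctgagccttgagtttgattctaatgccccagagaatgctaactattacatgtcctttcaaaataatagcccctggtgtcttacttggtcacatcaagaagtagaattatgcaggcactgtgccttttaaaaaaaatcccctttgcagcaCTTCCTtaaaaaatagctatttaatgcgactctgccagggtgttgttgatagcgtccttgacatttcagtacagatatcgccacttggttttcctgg
Lrrc15, chr16:30283205-30283504, minus strand: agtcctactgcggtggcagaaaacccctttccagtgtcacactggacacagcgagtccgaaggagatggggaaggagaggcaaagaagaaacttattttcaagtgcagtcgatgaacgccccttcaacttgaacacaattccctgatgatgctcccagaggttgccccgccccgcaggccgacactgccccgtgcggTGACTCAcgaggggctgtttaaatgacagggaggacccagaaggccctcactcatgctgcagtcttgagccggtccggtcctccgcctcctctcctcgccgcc
Gbx2, chr1:89931127-89931426, minus strand: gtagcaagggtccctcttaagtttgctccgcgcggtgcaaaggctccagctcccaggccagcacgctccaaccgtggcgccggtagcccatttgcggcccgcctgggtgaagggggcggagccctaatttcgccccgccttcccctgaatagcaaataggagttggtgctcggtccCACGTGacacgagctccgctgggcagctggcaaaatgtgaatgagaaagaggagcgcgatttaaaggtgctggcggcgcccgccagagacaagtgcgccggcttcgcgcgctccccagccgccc
Slc7a7, chr14:54417895-54418194, minus strand: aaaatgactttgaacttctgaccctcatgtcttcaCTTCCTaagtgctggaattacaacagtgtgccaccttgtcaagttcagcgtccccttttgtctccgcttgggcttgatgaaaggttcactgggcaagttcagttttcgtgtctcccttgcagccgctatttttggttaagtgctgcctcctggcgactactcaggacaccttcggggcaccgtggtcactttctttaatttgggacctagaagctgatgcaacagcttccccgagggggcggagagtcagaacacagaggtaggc
Dusp6, chr10:99262981-99263280, plus strand: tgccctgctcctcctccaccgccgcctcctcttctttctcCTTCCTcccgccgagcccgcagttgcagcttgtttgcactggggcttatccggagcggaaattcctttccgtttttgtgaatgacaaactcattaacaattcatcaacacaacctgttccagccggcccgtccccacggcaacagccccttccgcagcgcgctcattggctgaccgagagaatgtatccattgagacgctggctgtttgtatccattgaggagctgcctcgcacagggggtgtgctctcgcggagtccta
The capitals are AGGAAG, a core of sites for ETS factors, in Spic, Slc7a7 and Dusp6 (in all 3 read on the opposite strand), the AP-1 site TGANTCA in Lrrc15, and the E-box CACGTG in Gbx2. The Gata2 window held none of the motifs searched. CCGGAA, another ETS core, and TATAAA, the TATA box, were also searched on both strands, and AGGAAG and CCGGAA can overlap by a letter. A promoter was found for 7414 of 9107 tested genes. CCGGAA stood in 18.7% of the promoters of genes called higher with chlorate and 33% of those called lower, against 28.6% for all tested genes and 15.2% for all 27025 promoters of this length. For AGGAAG the shares were 31.2% of higher and 33.8% of lower genes, against 32.2% of tested genes and 35.1% of all promoters. For TGANTCA they were 5.68% and 5.23%, against 4.95% and 7.92% in the same order, for CACGTG 7.54% and 11.5%, against 10.3% and 7.24%, and for TATAAA 8.61% and 7.99%, against 7.43% and 14.2%. These shares describe letters in a window and not bound sites.

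The values are bead intensities that were background-corrected, quantile normalized and taken to log2, with an offset of 16 that pulls the fold changes of dim probes toward 0. Mean raw intensity was 369.3 to 429.6 on the chlorate arrays and 398.3 to 454.1 on the untreated arrays, and 12543 to 12819 probes were detected with chlorate and 12235 to 12821 untreated. Within a group, cultures differed by a mean of 0.115 to 0.153 log2 units a probe, and the 2 arrays of culture 3 by 0.136 with chlorate and 0.13 untreated. By mean intensity the arrays formed 2 sets that each hold 2 arrays of every group. Set A holds cultures 1 and 3, and set B holds culture 2 and the second array of culture 3. The 2 sets therefore share culture 3 and are not independent. All 9 ES cell markers were detected on every array of both groups, with Pou5f1, the central pluripotency factor, at 12.52, 12.50 and 12.44 in chlorate cultures and 12.64, 12.43 and 12.68 in untreated cultures. On no array of either group were 5 of 7 fibroblast markers (Col1a2, Col3a1, Postn, Dcn and Lum), 5 of 6 neural, 4 of 5 mesoderm and 3 of 4 macrophage markers detected. In bulk cultures, fewer cells of a type and less RNA per cell cannot be told apart.

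Chlorate changed the level of a large share of the detected genes, and most of the changes were small. Of 13377 tested probes (9107 genes), 1904 were called higher and 1899 lower in chlorate cultures at an adjusted p under 0.05 (limma, Benjamini-Hochberg), which is 14.2% in each direction and 28.4% together. By the brightest probe of each gene, 1392 genes were higher (15.3%) and 1344 lower (14.8%). At least 2-fold changes were called for 94 probes upward (69 genes) and 77 downward (60 genes). Without background correction these probes numbered 33 and 32, with an offset of 50 they numbered 42 and 39, and with the authors' processed values 165 and 112. By the values used here 2826 called probes changed by under 0.5 log2 units. The median absolute change of a called probe was 0.359 log2 units, and 90% of all probes lay between -0.408 and 0.455. All 3 chlorate cultures lay above all 3 untreated cultures for 2730 probes and below them for 2879, together 41.9% of those tested. The leading and the brightest changed genes named below were taken only from such probes. Their lack of overlap was therefore set by that choice. Of the called probes, 1862 of the 1904 higher and 1858 of the 1899 lower ones were apart in this way. A lack of overlap in any called gene named below therefore adds little to its call. Within each of the 2 array sets alone, with fewer arrays a group, 1223 and 1122 probes were called higher and 1037 and 1024 lower. On the first principal component of the 6 cultures, with 68.8% of the variance, the chlorate cultures lay at 17 to 17.9 and the untreated cultures at -18.0 to -16.6. Scaling the arrays by their medians in place of quantiles moved the median of all probes to -0.053 and the higher share of calls to 37.7%, against 50.1% here.

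**Figure D1:**
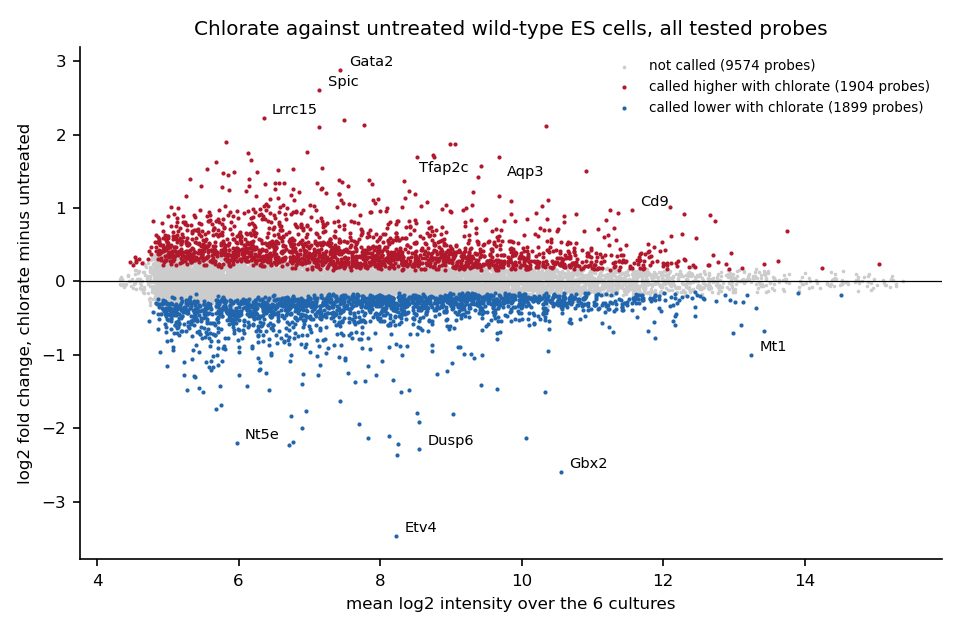
Log2 fold change, chlorate minus untreated (vertical), against mean log2 intensity over the 6 cultures (horizontal), 1 point for each of 13377 tested probes. Red points were called higher (1904 probes), blue points lower (1899), and grey points were not called. The called probes spread over the whole intensity range, and Etv4 is the lowest point at -3.47.

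The share of calls varied with signal strength. The probes were split by mean intensity into 5 classes of equal size, and 17% were called in the dimmest class, then 26.7%, 33.5%, 34.0% and 31% toward the brightest. Changes of at least 2-fold numbered 14, 48, 54, 38 and 17 in the same order. The median SE was 0.115 log2 units in the dimmest class and 0.0622 in the brightest. Of 2437 genes with several tested probes, 487 had more than 1 called probe, and for 5 of these (Actb, Adar, Cnot4, Nup50 and Shc1, named after their values were seen) called probes disagreed in direction.

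Most of the tested feedback regulators and transcription factors that ERK induces were lower with chlorate. Of 20 tested members of the FGF-ERK list, 13 fell (65%) and 2 rose (10%), against 14.8% and 15.3% of all genes. This and the other gene lists were chosen with earlier results of these data known, so the shares describe their members and test nothing. The 2 that rose were Ier3 and Fos, by at most 0.351 log2 units. The median of the list was -0.46 log2 units against -0.0038 for all tested genes. Etv4, an ETS transcription factor of the PEA3 family, read 6.62, 6.43 and 6.44 log2 units in chlorate cultures against 9.82, 10.03 and 10.03 in untreated cultures. The groups lay far apart, and the change of -3.47 ± 0.08 (SE) log2 units, 11-fold lower, was the widest of any tested probe (limma adjusted p = 1.39e-10). Dusp6, a phosphatase that removes the activating phosphates from ERK, read 7.40, 7.34 and 7.48 with chlorate against 9.82, 9.57 and 9.70 untreated, and its change was -2.29 ± 0.07 (limma adjusted p = 5.60e-10). A brighter Dusp6 probe gave -2.13 ± 0.08, and another, dim one was detected on no chlorate array and every untreated array. Dusp4, a nuclear phosphatase of the same family, read 6.78, 6.92 and 6.59 with chlorate against 8.86, 8.93 and 8.90 untreated, a change of -2.14 ± 0.08 (limma adjusted p = 1.64e-09). Spry4, a Sprouty inhibitor of receptor tyrosine kinase signalling, read 5.84, 6.13 and 5.72 with chlorate against 7.76, 7.87 and 8.06 untreated, a change of -2.0 ± 0.13 (limma adjusted p = 2.05e-07). In all 4 genes no chlorate culture reached the lowest untreated culture, which the choice of leading genes required. Spred1, which blocks Ras signalling to ERK, changed by -1.34 ± 0.07 and the transcription factor Myc by -1.43 ± 0.09, with Myc detected on 2 of 4 chlorate arrays. Egr1, an early response gene of ERK, was not called, at 11.10, 11.05 and 10.91 with chlorate against 11.22, 11.10 and 11.16 untreated (-0.13 ± 0.06, limma adjusted p = 0.141).

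Upstream of ERK, more ligands and receptors rose than fell with chlorate. Of 11 tested FGF ligands and receptors, 6 rose and 2 fell. Fgf8, a ligand of gastrulation and brain patterning, read 7.0, 7.22 and 6.89 in chlorate cultures against 5.86, 5.63 and 5.63 in untreated cultures, a rise of 1.33 ± 0.08 log2 units (limma adjusted p = 2.33e-07). Fgf10, a ligand of branching organs, rose by 0.81 ± 0.07 (limma adjusted p = 1.95e-06), and Fgfr2, a receptor, was on no untreated array and was at least 1.41-fold higher with chlorate (limma adjusted p = 1.31e-04). Fgf15, a secreted endocrine FGF, fell by 0.73 (limma adjusted p = 1.35e-04). Of 14 kinases and adaptors of the cascade 2 rose (14.3%) and 3 fell (21.4%), near the 15.3% and 14.8% of all genes. Gab1, a docking adaptor of receptor tyrosine kinases, changed by -0.29 and Mapk7, the kinase ERK5, by -0.34, and both calls were lost within an array set. Rasgrp1, an exchange factor that activates Ras, read 8.59, 8.52 and 8.54 with chlorate against 7.12, 7.36 and 7.20 untreated and rose by 1.33 ± 0.07 (limma adjusted p = 5.63e-08). The groups did not overlap for Fgf8 or Rasgrp1, which their choice as leading genes required.

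Genes of the sulfation pathway that chlorate blocks changed in both directions and mostly by little. Of 6 tested genes of sulfate uptake and activation, 2 rose and 0 fell (limma), with 3 and 0 at an unadjusted p under 0.05. Papss1, a PAPS synthase and the target step of chlorate, read 8.43, 8.33 and 8.41 in chlorate cultures against 8.03, 7.98 and 8.02 in untreated cultures, a rise of 0.38 ± 0.05 log2 units (limma adjusted p = 1.96e-04). Slc13a4, a sodium-coupled sulfate transporter, rose by 0.66 ± 0.09 (limma adjusted p = 1.85e-04). Slc35b3, which carries PAPS into the Golgi, was not called (0.20 ± 0.08, limma adjusted p = 0.0927), nor were Bpnt1 and Bpnt2, phosphatases that clear the spent donor (0.11 and 0.13). Of 15 heparan sulfate synthesis genes 3 rose (20%) and 4 fell (26.7%), against 15.3% and 14.8% of all genes. Hs6st1, which adds sulfate to the 6-O position of glucosamine, read 9.04, 9.05 and 9.15 with chlorate against 7.84, 7.97 and 7.88 untreated, with no overlap between the groups, and rose by 1.19 ± 0.07 or 2.27-fold (limma adjusted p = 1.02e-07). The chain polymerase gene Ext1 fell by 0.49 (limma adjusted p = 1.36e-04) while that of its partner Ext2 rose by 0.31 (limma adjusted p = 0.00176), a call lost within 1 array set. Sulf1, an extracellular enzyme that trims 6-O sulfates, fell by 0.29 (limma adjusted p = 0.0013). Hs2st1, the 2-O sulfotransferase, was not called (-0.11 ± 0.06).

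Genes of heparan sulfate core proteins and of heparin-binding ligands were called more often higher than lower. The same held for genes of sulfatases and sugar chain breakdown, a list not limited to heparan sulfate. Of 16 core proteins 5 rose (31.2%) and 1 fell (6.25%), against 15.3% and 14.8% of all genes. Hspg2 (perlecan), a basement membrane proteoglycan, rose by 0.43 ± 0.07 and the glypican Gpc3 by 0.41 ± 0.07, and the syndecan Sdc1 fell by 0.50 with its call lost within 1 array set. Of 13 genes of sulfatases and chain breakdown 4 rose and 0 fell, also at an unadjusted p under 0.05, with the lysosomal galactosidase Glb1 at 9.83, 9.87 and 9.77 with chlorate against 9.22, 9.25 and 9.33 untreated (0.56 ± 0.06, limma adjusted p = 2.0e-05). Of 17 heparin-binding ligands other than FGFs, 7 rose (41.2%) and 5 fell (29.4%). Cxcl12, a chemokine, read 8.15, 7.98 and 7.92 in chlorate cultures against 6.84, 6.85 and 6.79 in untreated cultures and rose by 1.19 ± 0.09 (limma adjusted p = 1.12e-06). Vegfa, the vascular growth factor, rose by 0.98 ± 0.06 (limma adjusted p = 2.37e-07), and Bmp4, a BMP ligand, fell by 1.63 (limma adjusted p = 7.93e-09). Outside heparan sulfate, Chst8, which sulfates sugars of pituitary hormones, rose by 0.67 and Chst7, a chondroitin sulfotransferase, fell by 0.35 with its call lost within 1 array set. Tpst1 and Tpst2, which sulfate tyrosines, were not called (0.12 and 0.15).

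Several of the leading increases were transcription factors. Gata2, a zinc-finger factor of blood progenitors and trophoblast, read 8.84, 8.92 and 8.88 log2 units in chlorate cultures against 6.0, 5.94 and 6.05 in untreated cultures. Its rise of 2.88 ± 0.08 or 7.35-fold was the steepest of any tested probe (limma adjusted p = 1.73e-10). Spic, an ETS factor known from red-pulp macrophages and also expressed in ES cells, read 8.48, 8.44 and 8.41 with chlorate against 6.11, 5.73 and 5.67 untreated and rose by 2.61 ± 0.09 (limma adjusted p = 1.64e-09). The matching values of Sox21, a SoxB factor, were 9.58, 9.62 and 9.62 with chlorate against 7.94, 7.93 and 7.79 untreated (1.72 ± 0.06, limma adjusted p = 1.31e-09). In all 3 the lowest chlorate culture was above the highest untreated culture. Msc (musculin), a repressor of the bHLH class, read 9.47, 9.33 and 9.32 with chlorate against 7.67, 7.62 and 7.75 untreated, a rise of 1.69 ± 0.06 (limma adjusted p = 1.31e-09). Elf3, an epithelial ETS factor, rose by 1.70 ± 0.08, Gsc (goosecoid), a homeobox factor of the organizer, by 1.76 ± 0.06, and Neurog3, a bHLH factor of endocrine progenitors, by 1.34 ± 0.09. Id4, a dominant-negative partner of bHLH factors, read 6.74, 6.94 and 6.83 with chlorate against 5.63, 5.31 and 5.40 untreated and rose by 1.39 ± 0.12 (limma adjusted p = 2.98e-06). The chlorate and untreated cultures did not overlap for any of these genes, which their choice as leading genes required.

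Other leading increases were genes of membrane, secreted and lipid proteins. Lrrc15, a leucine-rich membrane protein, read 7.42, 7.54 and 7.44 with chlorate against 5.21, 5.27 and 5.25 untreated (2.22 ± 0.08, limma adjusted p = 1.07e-09). Pdlim4, a PDZ and LIM protein of actin filaments, read 8.25, 8.20 and 8.14 with chlorate against 6.08, 6.26 and 5.93 untreated (2.10 ± 0.08, limma adjusted p = 3.83e-09). Pga5, a precursor of the stomach protease pepsin, rose by 2.19 ± 0.08, and Klk7, a skin serine protease detected on 1 untreated array and every chlorate array, by 1.90 ± 0.09. Gpat3, which starts glycerolipid synthesis, read 7.02, 6.93 and 7.06 in chlorate cultures against 5.40, 5.34 and 5.29 in untreated cultures and rose by 1.66 ± 0.10 (limma adjusted p = 1.27e-07). Rgma, a guidance molecule that also binds BMPs, read 6.62, 6.60 and 6.27 with chlorate against 4.77, 4.78 and 5.04 untreated and rose by 1.63 ± 0.11 (limma adjusted p = 2.56e-07), with 1 untreated array detecting it. The untreated cultures sat close together at the low end in both genes. Serping1, an inhibitor of complement proteases, rose by 1.52 ± 0.08, Coch (cochlin), a matrix protein of the inner ear, by 1.35 ± 0.11, and Col9a2, a cartilage collagen chain, by 1.34 ± 0.06. Cidea, a lipid droplet protein of brown fat, rose by 1.34 ± 0.11, Cyp1b1, a cytochrome P450, by 1.76 ± 0.10, Ap3b2, a neuronal vesicle adaptor, by 1.49 ± 0.15, and Mobp, a myelin protein on 1 untreated array, by 1.48 ± 0.11. Adjusted p-values of these 7 genes were between 1.83e-08 and 8.92e-06 (limma).

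**Figure D2:**
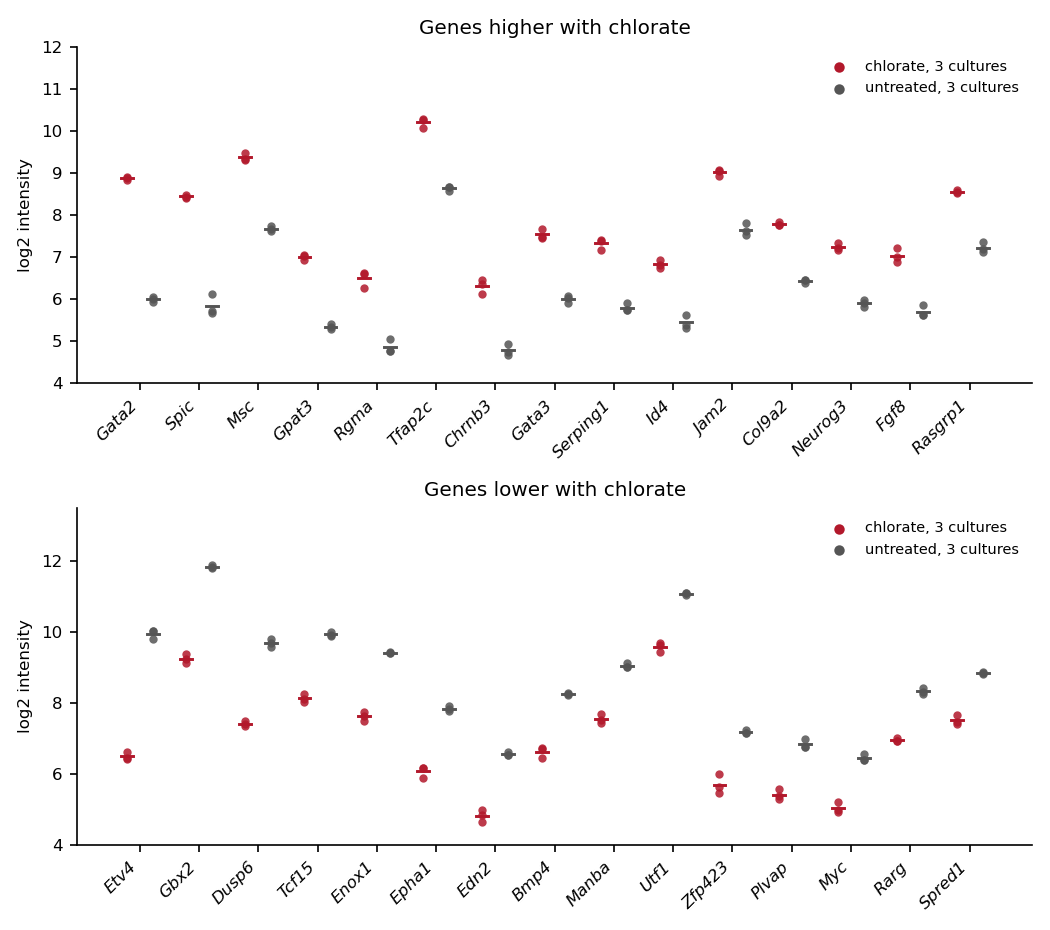
Log2 intensity of each culture for leading genes, with chlorate cultures left of the untreated cultures of the same gene and group means as bars, 15 genes higher with chlorate above and 15 lower below. These genes were chosen with the groups apart, so in each the 3 chlorate points lie on 1 side of the 3 untreated points. Gata2 is at 8.84, 8.92 and 8.88 with chlorate against 6.0, 5.94 and 6.05 untreated.

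Regulators, enzymes and genes known from vessels were among the leading decreases. Gbx2, a homeobox factor downstream of LIF, read 9.23, 9.38 and 9.14 log2 units in chlorate cultures against 11.90, 11.85 and 11.80 in untreated cultures, a change of -2.60 ± 0.07 or 6.05-fold lower (limma adjusted p = 1.58e-10). Slc7a7, an exchanger of basic amino acids, read 7.04, 7.09 and 7.05 with chlorate against 9.26, 9.54 and 9.49 untreated (-2.37 ± 0.10, limma adjusted p = 4.08e-09). Pdk1, a kinase that switches off pyruvate dehydrogenase, read 7.08, 7.16 and 7.18 with chlorate against 9.42, 9.28 and 9.37 untreated (-2.21 ± 0.07, limma adjusted p = 3.87e-10). No culture of one group entered the range of the other in these 3 genes, which their choice as leading genes required. Wt1, a zinc-finger factor of kidney and gonad, changed by -1.94 ± 0.10, Ccdc3, a secreted protein, by -1.83 ± 0.09, and Enox1, an electron transfer protein of the cell surface, by -1.80 ± 0.08. Zfp423, a zinc-finger partner of BMP and retinoic acid signalling, read 5.64, 5.45 and 6.0 with chlorate against 7.14, 7.14 and 7.24 untreated (-1.48 ± 0.12, limma adjusted p = 1.42e-06). Rarg, a retinoic acid receptor, read 6.93, 6.93 and 7.02 with chlorate against 8.26, 8.32 and 8.42 untreated (-1.37 ± 0.07, limma adjusted p = 5.63e-08). The zinc-finger gene Zfp532 changed by -1.48 ± 0.06. Among genes known from vessels, Robo4, a Roundabout receptor, changed by -2.22 ± 0.10, Esam, a junctional adhesion protein, by -2.19 ± 0.11, and Plvap, a protein of fenestral diaphragms, by -1.43 ± 0.10. Of the endothelial-type list as a whole, 5 of 13 tested members rose and 5 fell (38.5% each, against 15.3% and 14.8% of all genes), so the list had no common direction. The defining endothelial markers Cdh5, Tie1 and Emcn were detected on no array, and the summed level of the other markers was 204 to 277 with chlorate and 152 to 187 untreated on the linear scale, whose part in the result was not tested.

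Some genes were detected in 1 group and not in the other. There were 67 probes on 4 of 4 chlorate arrays and 0 of 4 untreated arrays, of which 60 were called, and 43 with the reverse pattern, of which 42 were called. Nt5e, the surface nucleotidase that makes adenosine, read 4.91, 4.78 and 4.94 in chlorate cultures against 7.11, 7.05 and 7.06 in untreated cultures and was at least 4.14-fold lower with chlorate (limma adjusted p = 2.40e-10). Edn2, an endothelin peptide, was at least 2.89-fold lower, Sptbn4, a spectrin of axons, at least 2.34-fold, Pdyn, the precursor of dynorphin peptides, at least 2.22-fold, and Grm6, a glutamate receptor of the retina, at least 2.02-fold (limma adjusted p = 2.07e-08, 1.73e-07, 1.09e-06 and 1.20e-06). These bounds set the brighter group against the dimmest detected signal on each array of the other. In the other direction, Chrnb3, a nicotinic receptor subunit, read 6.13, 6.35 and 6.46 with chlorate against 4.75, 4.93 and 4.67 untreated and was at least 2.4-fold higher with chlorate (limma adjusted p = 4.85e-05). Slit2, a guidance ligand of Robo receptors, was at least 1.53-fold higher, Irx3, a homeobox factor, at least 1.48-fold, Rgcc, a cell cycle regulator, at least 1.51-fold, and Trim43a, a gene of the early embryo, at least 1.52-fold (limma adjusted p = 5.16e-05, 4.04e-05, 5.24e-05 and 9.28e-06).

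Genes of naive pluripotency and of the primed epiblast parted. Of 19 tested naive genes 14 rose and 3 fell (median 0.49 log2 units), and of 16 primed genes 3 rose and 11 fell (median -0.60), against 15.3% higher and 14.8% lower over all genes. The 3 naive genes that fell were Gbx2 (-2.60), Manba and Klf5. The 3 primed genes that rose were Sfrp2, Nodal and Cldn6. Dppa3, a maternal factor that protects DNA methylation marks, read 9.93, 9.94 and 9.89 in chlorate cultures against 8.80, 8.64 and 8.67 in untreated cultures (1.21 ± 0.06, limma adjusted p = 2.42e-08). Klf4, a Kruppel-like factor downstream of LIF, read 10.01, 10.03 and 9.72 with chlorate against 8.97, 9.05 and 9.20 untreated (0.85 ± 0.08, limma adjusted p = 8.92e-06). Tcf15, a bHLH factor of cells leaving the naive state, read 8.03, 8.25 and 8.12 with chlorate against 9.92, 10 and 9.90 untreated (-1.81 ± 0.07, limma adjusted p = 3.83e-09). Dppa3 and Klf4 were higher in each chlorate culture than in any untreated culture, and Tcf15 lower. Pou3f1, a POU factor of the epiblast and nervous system, changed by -1.91 ± 0.08 and Wnt8a, a Wnt ligand of the primitive streak, by -0.96 ± 0.10. General pluripotency genes split, with 4 of 13 higher and 6 lower. Utf1, a chromatin factor of undifferentiated cells, changed by -1.50 ± 0.07, L1td1, an RNA-binding protein, by -0.61 ± 0.09 and Dppa4, a chromatin protein, by -0.59 ± 0.06, while Pou5f1 was not called (-0.10 ± 0.08) and Dppa5a, an RNA-binding protein, was not called (0.08 ± 0.06). Dnmt3b and Dnmt3l, of the machinery that writes new DNA methylation, changed by -0.70 and -0.68 (limma adjusted p = 2.43e-06 and 1.69e-06), and the maintenance enzyme Dnmt1 was not called (-0.03 ± 0.07).

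More genes of the extraembryonic lineages rose than fell, where 15.3% of all genes rose and 14.8% fell. Of 17 tested trophectoderm genes 11 rose and 0 fell (1 at an unadjusted p under 0.05; median 0.38 log2 units), and of 18 primitive endoderm genes 11 rose and 2 fell (median 0.30). Both lists were chosen with earlier results known, and the steepest rise in the primitive endoderm list was that of Sox21 (1.72). Gata3, a zinc-finger factor of trophoblast and T cells, read 7.48, 7.47 and 7.68 in chlorate cultures against 6.08, 6.03 and 5.91 in untreated cultures (1.53 ± 0.07, limma adjusted p = 1.05e-08). Tfap2c, an AP-2 factor of trophoblast and germ cells, read 10.29, 10.08 and 10.25 with chlorate against 8.67, 8.59 and 8.67 untreated (1.57 ± 0.07, limma adjusted p = 1.08e-08), and Rhox9, a homeobox gene of the placenta, rose by 1.13 ± 0.08. Neither group overlapped the other in Gata3 or Tfap2c, which their choice as leading genes required. Of 7 defining trophoblast markers on the array, Hand1, Elf5 and Esx1 were on no array and Cdx2 was not called (mean 5.94 with chlorate against 5.87 untreated). The summed linear level of the 4 tested trophoblast markers was 319 to 356 with chlorate and 183 to 197 untreated, with Gata3 the brightest of them (mean 7.54 with chlorate against 6.01 untreated), and their part in the list's change was not tested. Among primitive endoderm genes, Lrpap1, a chaperone of LDL-family receptors, rose by 0.94 ± 0.06 and Lama1, a laminin chain, by 0.69 ± 0.07, while Fst, the activin antagonist follistatin, was on no chlorate array and was at least 1.49-fold lower. Of the defining markers, Sox17 was on no array, Gata4 on 0 of 4 chlorate and 1 of 4 untreated arrays, and Gata6 fell (mean 5.57 with chlorate against 5.95 untreated, limma adjusted p = 0.0237). Their summed level was 508 to 552 with chlorate and 408 to 431 untreated. Of the 5 markers summed, only Dab2, an endocytic adaptor, was called higher (mean 8.61 with chlorate against 8.02 untreated), while Gata4 and Sox7 had lower means and were not called and Pdgfra was not called (5.08 with chlorate against 4.92 untreated). The part of these markers in the list's change was not tested. Of 6 mesendoderm genes 2 rose and 1 fell, and of 6 neuroectoderm genes 0 rose (1 at an unadjusted p under 0.05) and 1 fell.

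Basement membrane and junction genes were called higher and not lower with chlorate. Of 17 basement membrane and matrix genes 9 rose and 0 fell (median 0.32 log2 units), and of 13 claudins and tight junction genes 7 rose and 0 fell (median 0.27), against 15.3% higher and 14.8% lower over all genes. At an unadjusted p under 0.05, 0 and 1 of their members were lower. Of the matrix genes that rose, Lama1, Lamb1, Lamc1, Col4a1, Col4a2 and Sparc were also counted above among the primitive endoderm genes that rose. The matrix and primitive endoderm counts are therefore not separate results. Lama1 read 9.91, 9.95 and 9.90 in chlorate cultures against 9.07, 9.36 and 9.25 in untreated cultures (0.69 ± 0.07, limma adjusted p = 1.08e-05). Nid1 (nidogen), which links laminin to collagen, read 7.78, 7.60 and 7.71 with chlorate against 7.22, 7.14 and 7.12 untreated (0.54 ± 0.09, limma adjusted p = 6.17e-04). Both genes were above the untreated range in every chlorate culture, while the related Nid2 was not called (-0.05 ± 0.08). Col4a2, a chain of collagen IV, rose by 0.51 ± 0.12 and Lamb1, a laminin chain, by 0.48 ± 0.13 (limma adjusted p = 0.00721 and 0.0154). The Col4a2 call was lost within 1 array set, and that of Lamb1 within either set and without untreated culture 1 or chlorate culture 2. The junction gene Jam2, an adhesion protein of tight junctions, read 10.34, 10.50 and 10.34 with chlorate against 9.32, 9.35 and 9.22 untreated (1.09 ± 0.09, limma adjusted p = 1.53e-06), with 1.36 ± 0.08 by another probe. Cldn4, a sealing claudin, rose by 0.45 ± 0.07 and F11r, another junctional adhesion protein, by 0.41 ± 0.06 (limma adjusted p = 3.77e-04 and 3.52e-04), and the scaffold gene Tjp1 was not called (0.24 ± 0.09). Cdh1, E-cadherin, was not called (0.27 ± 0.11, limma adjusted p = 0.0822).

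Of 34 actin genes and targets of the factor SRF, 12 rose (35.3%) and 4 fell (11.8%), against 15.3% and 14.8% of all genes. Lima1, an actin filament bundler, read 9.25, 9.19 and 9.15 in chlorate cultures against 8.16, 8.14 and 8.04 in untreated cultures (1.09 ± 0.08, limma adjusted p = 1.12e-06). Actc1, the cardiac actin, rose by 0.95 ± 0.08 and Pdlim3, a Z-disc protein, by 0.76 ± 0.08 (limma adjusted p = 2.70e-06 and 1.10e-05). Tmsb4x, Pfn1 and Myl6, bright genes that bind or move actin, were not called (-0.16, -0.04 and 0.07). Of 10 integrins 2 rose and 2 fell (20% each, near the shares of all genes): Itgb5, a receptor chain for vitronectin, rose by 0.62 ± 0.06, and Itga3, a laminin receptor chain, fell by 0.89 (limma adjusted p = 4.56e-06 and 5.36e-07). Of 10 targets of the YAP and TEAD factors 3 rose (30%) and 0 fell (1 at an unadjusted p under 0.05). Those that rose included the matricellular protein Ccn2 (0.49 ± 0.05, limma adjusted p = 2.53e-05). Of the fibroblast list 0 of 6 tested members rose (1 at an unadjusted p under 0.05) and 3 fell, with the fibroblast and T cell surface protein Thy1 at 5.92, 5.92 and 5.88 with chlorate against 6.41, 6.48 and 6.62 untreated (-0.60 ± 0.09, limma adjusted p = 4.29e-04).

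**Figure D3:**
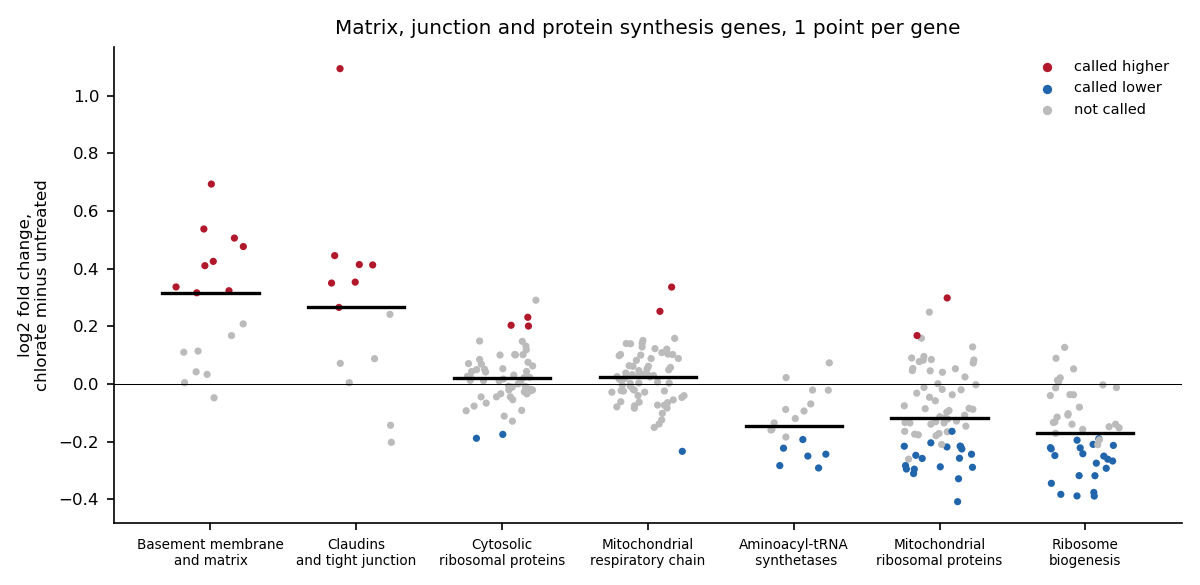
Log2 fold change, chlorate minus untreated (vertical), of each tested member of 7 gene lists, 1 point per gene, with the list median as a bar. Red and blue points were called higher and lower. The medians are 0.32 for matrix, 0.27 for junction, 0.02 for cytosolic ribosome and -0.17 for ribosome biogenesis genes.

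Developmental signalling pathways other than FGF changed in parts. Of 39 BMP, Nodal and TGF-beta genes 16 rose (41%) and 5 fell (12.8%), against 15.3% and 14.8% of all genes. Among them the targets Id2 and Msx1 were higher and the ligand Bmp4 lower. Bmp4 read 6.70, 6.72 and 6.43 in chlorate cultures against 8.26, 8.27 and 8.23 in untreated cultures. Id2, an inhibitor of bHLH factors induced by BMP, read 9.35, 9.38 and 9.62 with chlorate against 8.41, 8.38 and 8.44 untreated (1.04 ± 0.09, limma adjusted p = 2.54e-06). Msx1, a homeobox target of BMP, read 6.58, 6.91 and 6.73 with chlorate against 5.88, 5.73 and 5.88 untreated (0.91 ± 0.08, limma adjusted p = 4.13e-06). The groups were apart in all 3 genes, as in nearly all called probes. The receptor Bmpr1a and the shared mediator Smad4 were not called (0.08 and 0.04). Of 28 Wnt genes 12 rose (42.9%) and 6 fell (21.4%). Sfrp1, a secreted Wnt antagonist, read 8.13, 7.93 and 7.97 with chlorate against 6.80, 6.78 and 6.88 untreated (1.19 ± 0.09, limma adjusted p = 9.61e-07). Tcf7l1, a repressor at Wnt targets, read 11.56, 11.60 and 11.65 with chlorate against 10.79, 10.76 and 10.75 untreated (0.84 ± 0.05, limma adjusted p = 1.43e-07). The chlorate cultures were the higher ones throughout. Lef1, an activator at Wnt targets, was on no chlorate array and was at least 1.28-fold lower (limma adjusted p = 6.04e-05), a call lost with the authors' processed values. Axin2, a feedback target of Wnt, was not called (0.03 ± 0.15), nor was Ctnnb1, beta-catenin (0.13 ± 0.06).

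Of 19 Notch pathway genes 4 rose (21.1%) and 2 fell (10.5%), against 15.3% and 14.8% of all genes, so the list was near the background. Notch1, a receptor, read 8.33, 8.57 and 8.49 in chlorate cultures against 7.20, 7.47 and 7.49 in untreated cultures (1.07 ± 0.09, limma adjusted p = 1.62e-06). Jag1, a ligand, rose by 0.51 ± 0.10 and Hes6, a modulator of Hes repressors, fell by 0.70 (limma adjusted p = 0.00197 and 2.54e-06). Among 10 Eph receptors and ephrins, the receptor Epha1 read 6.15, 6.17 and 5.89 with chlorate against 7.77, 7.83 and 7.91 untreated (-1.77 ± 0.08, limma adjusted p = 9.63e-09). The ephrin Efnb1 read 7.34, 7.43 and 7.23 with chlorate against 6.32, 6.05 and 6.09 untreated (1.18 ± 0.09, limma adjusted p = 8.17e-07). Epha1 was lower and Efnb1 higher in each chlorate culture, and the receptor Epha2 fell by 0.89. LIF pathway genes were called in 2 of 15 cases upward (13.3%) and 3 downward (20%), again near the shares of all genes. Socs2, a suppressor of cytokine signalling, fell by 0.65 (limma adjusted p = 9.73e-06), and Stat3 and Socs3, the factor and its feedback inhibitor, were not called (0.16 and -0.13).

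Genes that build ribosomes and charge tRNAs were called lower and not higher with chlorate, while few cytosolic ribosomal proteins were called. Of 47 ribosome biogenesis genes 0 rose and 21 fell (44.7%, against 14.8% of all genes), with a median of -0.17 log2 units. Of 71 mitochondrial ribosomal proteins 2 rose and 19 fell (median -0.12), and of 18 aminoacyl-tRNA synthetases 0 rose and 6 fell (median -0.15). In the biogenesis and synthetase lists 0 members were higher at an unadjusted p under 0.05 too. Of the other lists 3 of 56 cytosolic ribosomal proteins rose and 2 fell (median 0.02), and 2 of 69 respiratory chain subunits rose and 1 fell (median 0.03). Ebna1bp2, a nucleolar factor of the large ribosomal subunit, read 11.02, 11.05 and 11.01 in chlorate cultures against 11.36, 11.41 and 11.43 in untreated cultures (-0.38 ± 0.05, limma adjusted p = 1.21e-04). Nifk, a nucleolar partner of the proliferation protein Ki-67, read 10.70, 10.70 and 10.64 with chlorate against 11.11, 11.04 and 11.04 untreated (-0.38 ± 0.06, limma adjusted p = 2.82e-04). Wdr74, an assembly factor of the large subunit, read 10.19, 10.09 and 10.23 with chlorate against 10.50, 10.57 and 10.61 untreated (-0.39 ± 0.07, limma adjusted p = 0.00121). Every chlorate culture was below every untreated culture in these 3 genes, as in nearly all probes called lower, with the means less than 0.5 log2 units apart. The bright nucleolar genes Npm1 (nucleophosmin) and Fbl (fibrillarin) were not called (-0.0033 and -0.04). Of the mitochondrial ribosome, Mrpl16 read 8.88, 8.91 and 8.95 with chlorate against 9.26, 9.34 and 9.36 untreated (-0.41 ± 0.07, limma adjusted p = 9.22e-04). Of the synthetases Nars, which charges asparagine tRNA, read 8.84, 8.77 and 8.89 with chlorate against 9.10, 9.14 and 9.11 untreated (-0.28 ± 0.06, limma adjusted p = 0.00219), a call lost within either array set. Median scaling gave 27, 30 and 8 lower members in the biogenesis, mitochondrial and synthetase lists, and moved the cytosolic ribosomal median to -0.067.

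**Figure D4:**
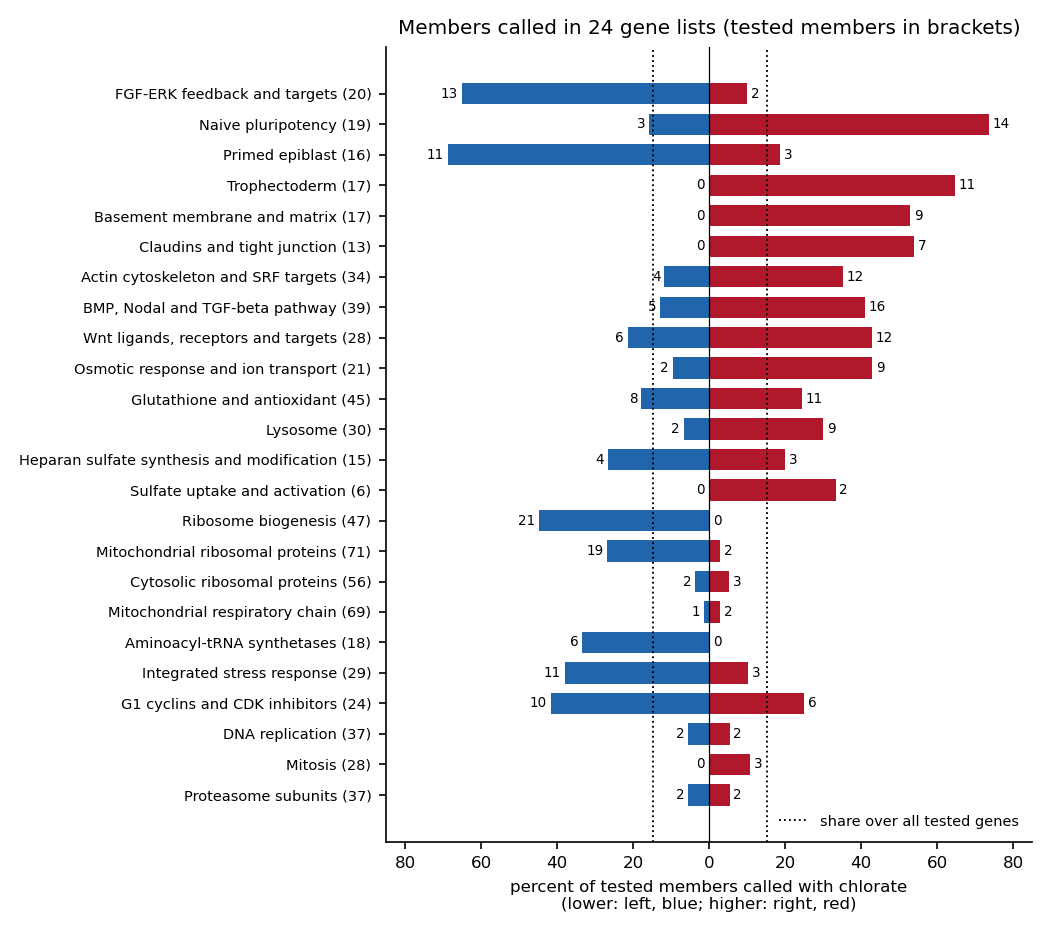
Percent of tested members called lower (blue, left) and higher (red, right) with chlorate in 24 gene lists, with the number of members called beside each bar and the number tested in brackets. Dotted lines mark the shares of all tested genes, 14.8% lower and 15.3% higher. The lists of ribosome biogenesis (21 lower of 47) and basement membrane genes (9 higher of 17) were called in 1 direction only.

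Genes of amino acid supply and stress were called in both directions, more often lower. Of 20 amino acid transporters 4 rose (20%) and 5 fell (25%), against 15.3% and 14.8% of all genes. Slc7a3, a carrier of basic amino acids, read 11.49, 11.50 and 11.32 in chlorate cultures against 12.19, 12.05 and 12.11 in untreated cultures (-0.68 ± 0.07, limma adjusted p = 1.05e-05). Slc1a1, a glutamate carrier, rose by 0.55 ± 0.08 (limma adjusted p = 2.68e-04). Of 16 genes of serine, glycine and folate metabolism 1 rose and 6 fell, including Slc19a1, the folate carrier (-0.60 ± 0.08, limma adjusted p = 8.38e-05), and Mthfd2, a mitochondrial folate enzyme (-0.51 ± 0.10, limma adjusted p = 0.00237). Of 17 genes of amino acid breakdown 0 rose (2 at an unadjusted p under 0.05) and 6 fell. Integrated stress response genes numbered 3 higher and 11 lower of 29, with Chac1, which degrades glutathione, at 8.21, 8.35 and 8.21 with chlorate against 9.04, 8.86 and 8.84 untreated (-0.66 ± 0.07, limma adjusted p = 2.59e-05). The chlorate cultures were below the untreated ones in Slc7a3 and Chac1. Asns, the asparagine synthetase of that response, was not called (-0.15 ± 0.06). These lists share members, so their counts are not separate results. Of the lower stress response genes, Mthfd2, Phgdh, Psat1 and Shmt2 were also lower serine and folate genes, and Slc3a2 and Slc7a5 lower transporters. Gldc was lower in both the folate and the breakdown list.

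Of 45 glutathione and antioxidant genes 11 rose (24.4%) and 8 fell (17.8%), against 15.3% and 14.8% of all genes. Mt1 and Mt2 are metallothioneins, which bind zinc and copper. Mt1 read 12.71, 12.75 and 12.75 in chlorate cultures against 13.80, 13.68 and 13.75 in untreated cultures (-1.01 ± 0.06, limma adjusted p = 6.10e-08). Mt2 read 6.09, 6.46 and 6.28 with chlorate against 7.60, 7.34 and 7.68 untreated (-1.27 ± 0.15, limma adjusted p = 4.81e-05). Both lay below the untreated range in each chlorate culture. Gstm1, a glutathione transferase, rose by 0.94 ± 0.07 (limma adjusted p = 1.20e-06), though its family holds close copies that a probe may not part. Hmox1, the haem oxygenase induced by oxidants, fell by 0.71 (limma adjusted p = 4.41e-06), and the superoxide dismutase Sod1 and the peroxiredoxin Prdx1 were not called (0.13 and 0.01). Under median scaling the median of the list turned from 0.07 to -0.035.

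Of 21 genes of osmotic response and ion transport 9 rose (42.9%) and 2 fell (9.52%), against 15.3% and 14.8% of all genes. Aqp3, a channel for water and glycerol, read 10.66, 10.52 and 10.40 in chlorate cultures against 8.92, 8.71 and 8.86 in untreated cultures (1.69 ± 0.08, limma adjusted p = 1.05e-08). Slc6a6, the taurine transporter, read 11.70, 11.65 and 11.66 with chlorate against 11.04, 10.88 and 10.91 untreated (0.72 ± 0.06, limma adjusted p = 1.87e-06). Sgk1, a kinase that governs ion channels, read 12.79, 12.76 and 12.75 with chlorate against 12.25, 12.11 and 12.16 untreated (0.60 ± 0.06, limma adjusted p = 1.80e-05). All chlorate cultures were higher in these 3 genes, as in nearly all probes called higher. Slc12a2, a sodium, potassium and chloride carrier, rose by 0.54 ± 0.06 (limma adjusted p = 1.40e-05), while Atp1b1, a subunit of the sodium pump, was not called (0.07 ± 0.08). Of 30 lysosome genes 9 rose and 2 fell, with Psap (prosaposin), the precursor of lipid-degrading activators, up by 0.55 ± 0.06 and Manba, beta-mannosidase, changed by -1.46 (limma adjusted p = 2.48e-05 and 7.13e-09). Of 27 glycolysis genes 3 rose (11.1%) and 5 fell (18.5%), near the shares of all genes, with Slc2a3, a glucose transporter, at 13.14, 13.15 and 13.07 with chlorate against 12.21, 12.18 and 12.25 untreated (0.91 ± 0.05, limma adjusted p = 1.44e-07), and Gapdh not called (0.01 ± 0.05). Trf (transferrin), the iron carrier, fell by 1.08 (limma adjusted p = 2.66e-07). Of 31 genes of cholesterol and fatty acid synthesis 7 rose and 1 fell, and median scaling called 2 higher.

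Most of the called cell cycle genes belonged to the G1 list. Of 24 G1 cyclins, their inhibitors and E2F factors 6 rose (25%) and 10 fell (41.7%), where 15.3% of all genes rose and 14.8% fell. Of 37 DNA replication genes 2 rose and 2 fell (5.41% each). Of 28 mitosis genes 3 rose (10.7%) and 0 fell (2 at an unadjusted p under 0.05). E2f2, an activating E2F factor, read 6.26, 6.15 and 6.24 in chlorate cultures against 7.08, 7.11 and 6.96 in untreated cultures (-0.83 ± 0.08, limma adjusted p = 1.12e-05). Cdkn1a (p21), a CDK inhibitor, read 9.10, 9.12 and 9.05 with chlorate against 8.57, 8.57 and 8.50 untreated (0.54 ± 0.08, limma adjusted p = 1.78e-04), and Rb1, the retinoblastoma repressor of E2F, rose by 0.49 ± 0.07 (limma adjusted p = 3.32e-04). E2f2 was lower and Cdkn1a higher in every chlorate culture. Mcm4 and Top2a, of replication forks and mitotic chromosomes, were not called (0.04 and 0.06). Of 22 apoptosis genes 5 rose (22.7%) and 4 fell (18.2%), not far from the shares of all genes: Bik, a BH3-only killer protein, rose by 0.72 ± 0.06, and Pmaip1 (Noxa), another of that class and a target of p53, fell by 0.97 (limma adjusted p = 2.76e-06 and 8.19e-07). Of 23 targets of p53, 1 rose (4.35%) and 4 fell (17.4%), and Mdm2, its ubiquitin ligase, was not called (-0.03 ± 0.06). The heat shock proteins were called in 3 of 25 cases upward and 1 downward, with Hspb8, a small heat shock protein, up by 1.05 ± 0.06 (limma adjusted p = 8.73e-08), and 2 of 37 proteasome genes rose and 2 fell.

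Interferon-stimulated, imprinted and germline genes gave mixed results. Of 21 interferon and antigen presentation genes 8 rose (38.1%) and 5 fell (23.8%), against 15.3% and 14.8% of all genes. Ifitm1, an antiviral membrane protein also of germ cells, read 9.94, 10.14 and 9.92 in chlorate cultures against 7.97, 8.22 and 8.17 in untreated cultures (1.88 ± 0.11, limma adjusted p = 1.02e-07). Bst2 (tetherin), which holds viruses at the membrane, read 6.11, 6.60 and 5.89 with chlorate against 7.68, 7.83 and 7.26 untreated (-1.39 ± 0.21, limma adjusted p = 2.81e-04). The chlorate cultures were thus higher in one and lower in the other. Of 15 imprinted genes 4 rose and 4 fell (26.7% each). Igf2, a growth factor expressed from the paternal copy, read 10.27, 10.22 and 10.28 with chlorate against 9.14, 9.10 and 9.06 untreated (1.16 ± 0.07, limma adjusted p = 8.87e-08), with no overlap, and Peg3, a paternally expressed zinc-finger gene, rose by 0.86 ± 0.10. Grb10, an adaptor that dampens insulin signalling, fell by 0.47 (limma adjusted p = 5.12e-04). Of 16 germline genes 2 rose (12.5%) and 8 fell (50%), including Piwil2, a partner of piRNAs (-1.01 ± 0.06, limma adjusted p = 1.26e-07).

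The brightest 20% of probes, where the median SE was smallest, held further changes beside those of Gbx2, Aqp3, Tfap2c and Utf1 given above. Glrx (glutaredoxin), which reduces protein disulfides, read 10.89, 10.88 and 10.99 in chlorate cultures against 9.86, 9.81 and 9.78 in untreated cultures (1.10 ± 0.06, limma adjusted p = 9.82e-08). Cd9, a tetraspanin of the cell surface, read 12.08, 12.01 and 12.04 with chlorate against 11.16, 10.99 and 11.05 untreated (0.97 ± 0.07, limma adjusted p = 4.21e-07). Mfge8, a secreted protein that bridges dying cells to phagocytes, read 11.72, 11.75 and 11.73 with chlorate against 10.79, 10.78 and 10.74 untreated (0.97 ± 0.05, limma adjusted p = 7.37e-08). In each of the 3, the lowest chlorate culture exceeded the highest untreated culture, which the rule for choosing them required. Rfx2, a regulator of cilium genes, rose by 1.02 ± 0.06 and Fxyd6, a regulator of the sodium pump, by 0.93 ± 0.06. Gja1 (connexin 43), the gap junction channel, read 11.53, 11.48 and 11.50 with chlorate against 12.23, 12.26 and 12.34 untreated (-0.78 ± 0.06, limma adjusted p = 8.17e-07). Pnp, a purine salvage enzyme, changed by -0.94, Noct, a circadian phosphatase, by -1.0 and Lmo4, a LIM-only cofactor, by -0.79 (limma adjusted p = 3.85e-07, 2.56e-07 and 3.67e-07).

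Chlorate was set directly against SU5402 to see where blocking sulfation and blocking the FGF receptor kinase differed, at 24 h for both but at doses of different compounds. Their changes against untreated cells share the untreated cultures, so each is given by its own values. Of 13377 probes, 201 were called above SU5402 with chlorate (1.50%) and 139 below (1.04%), 2.54% in all, with 2202 at an unadjusted p under 0.05. These counts depended on the cultures used. Without chlorate culture 1, 2 or 3 the count above was 88, 97 and 123 and the count below 72, 67 and 80. Without SU5402 culture 1, 2 or 3 the count above was 110, 95 and 122 and the count below 69, 64 and 87. Within each array set alone they were 16 and 3 above and 5 and 3 below, and Etv4, Dusp6, Nt5e and Gm428 kept their calls in both sets. Because culture 3 of every group is in both sets, these are not 2 independent results. Chlorate was above both SU5402 and untreated cells in 151 probes (128 genes) and below both in 102 (90 genes). It was higher than untreated and lower than SU5402 in 4 probes, and the reverse in 8.

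Several FGF-ERK feedback genes were lower with chlorate than with SU5402. Of the 20 tested members of that list 7 were called below SU5402 and 0 above (1 above at an unadjusted p under 0.05). Over all probes the shares were 1.04% below and 1.50% above. Etv4 read 6.62, 6.43 and 6.44 in chlorate cultures and 7.70, 7.62 and 7.66 in SU5402 cultures, against 9.82, 10.03 and 10.03 in untreated cultures. The 3 groups did not overlap, and chlorate minus SU5402 was -1.17 ± 0.08 (limma adjusted p = 2.46e-05). Dusp6 read 7.40, 7.34 and 7.48 with chlorate and 8.24, 8.26 and 8.41 with SU5402, against 9.82, 9.57 and 9.70 untreated, a difference to SU5402 of -0.90 ± 0.07 (limma adjusted p = 6.24e-05). Dusp4 differed from SU5402 by -0.86 ± 0.08, Phlda1, a pleckstrin-homology protein induced by ERK, by -0.78 ± 0.10 and Egr1 by -0.27 ± 0.06 (limma adjusted p = 1.67e-04, 0.00334 and 0.0464). Unlike Dusp4 and Phlda1, Egr1 was not called lower than in untreated cells. Spry4 was not called apart from SU5402 (-0.40 ± 0.13, limma adjusted p = 0.122), and neither was Myc (0.0013 ± 0.09). Nt5e read 4.91, 4.78 and 4.94 with chlorate and 6.0, 5.99 and 5.94 with SU5402, against 7.11, 7.05 and 7.06 untreated, and was on every SU5402 array and no chlorate array. Its measured difference was -1.10 ± 0.06 (limma adjusted p = 5.32e-06), at least 1.93-fold lower with chlorate. Pdk1 differed by -0.63 ± 0.07, Enox1 by -0.64 ± 0.08 and Vegfc, a lymphatic growth factor, by -0.62 ± 0.06 (limma adjusted p = 5.09e-04, 0.00273 and 4.46e-04).

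**Figure D5:**
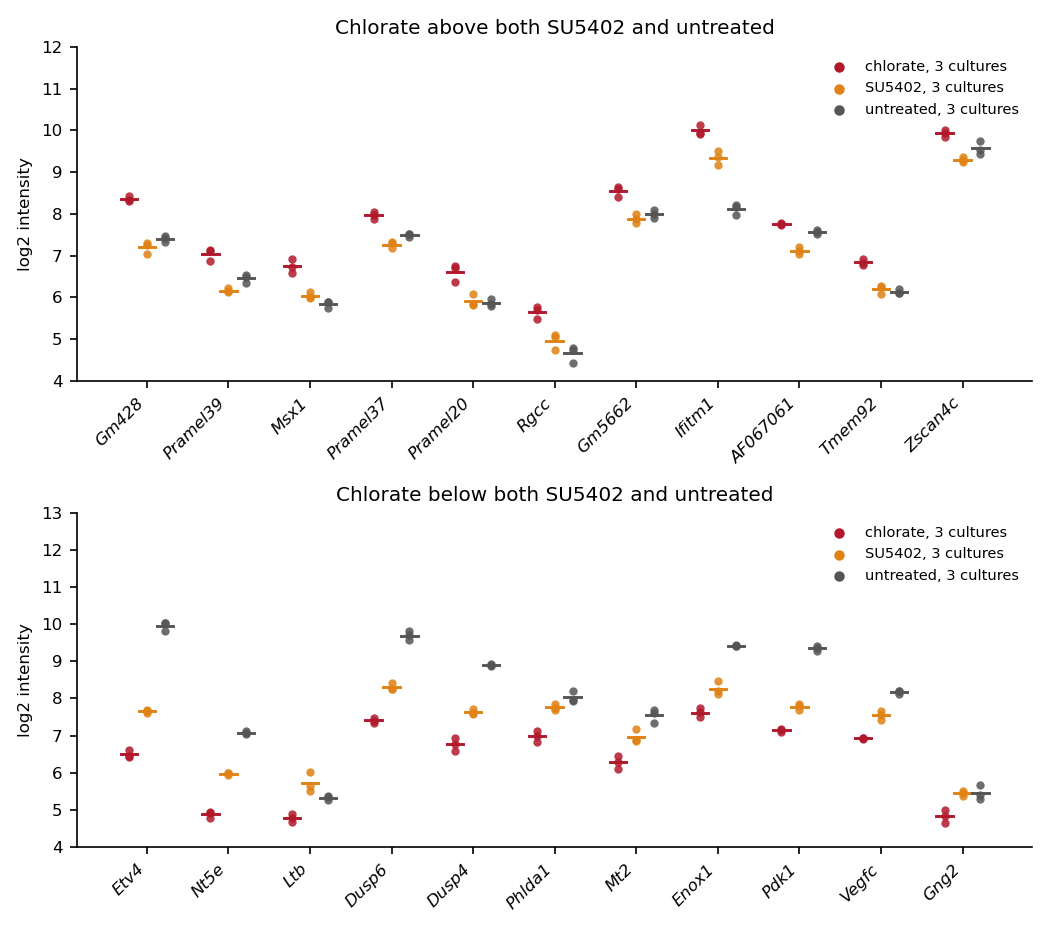
Log2 intensity of each culture (points) and group mean (bars) for 11 genes with chlorate above both SU5402 and untreated cells (top) and 11 with chlorate below both (bottom), in the order chlorate, SU5402, untreated. In Etv4 the SU5402 cultures, at 7.70, 7.62 and 7.66, lie between the chlorate and the untreated cultures.

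Genes higher with chlorate than with SU5402 included the BMP target Msx1, at 6.58, 6.91 and 6.73 in chlorate cultures and 5.99, 5.98 and 6.13 in SU5402 cultures, against 5.88, 5.73 and 5.88 in untreated cultures. Chlorate minus SU5402 was 0.71 ± 0.08 (limma adjusted p = 8.90e-04), and the chlorate cultures stood above both other groups. Id2 differed by 0.40 ± 0.09, Ifitm1 by 0.65 ± 0.11, Spic by 0.56 ± 0.09, Msc by 0.53 ± 0.06 and Aqp3 by 0.43 ± 0.08 (limma adjusted p = 0.036, 0.0101, 0.011, 8.31e-04 and 0.0126). Gm428 read 8.33, 8.43 and 8.30 with chlorate and 7.30, 7.04 and 7.25 with SU5402, against 7.32, 7.41 and 7.46 untreated, a difference to SU5402 of 1.15 ± 0.07 (limma adjusted p = 1.24e-05). Zscan4c, a gene of the Zscan4 family that marks the early embryo and rare ES cells, read 9.95, 9.85 and 10.01 with chlorate and 9.29, 9.24 and 9.37 with SU5402, against 9.75, 9.42 and 9.54 untreated (0.64 ± 0.08, limma adjusted p = 0.00225). In both genes every chlorate culture was above every culture of the other groups. The Pramel genes Pramel39, Pramel37 and Pramel20 differed by 0.88 ± 0.08, 0.70 ± 0.08 and 0.69 ± 0.11 (limma adjusted p = 1.53e-04, 7.01e-04 and 0.00928). Zscan4 and Pramel genes have near-identical copies, so which copy was measured is uncertain. The Zscan4c call against untreated cells was not made under median scaling. By limma, 0 members of the lists of ribosome biogenesis, tRNA synthetase, trophectoderm and basement membrane genes were called above or below SU5402. Over all 9107 genes 158 were above and 103 below, so few or no calls would stand in lists of 47, 18, 17 and 17 members. At an unadjusted p under 0.05 the numbers above were 0, 1, 3 and 2 and those below 3, 1, 6 and 0. The median differences to SU5402 were -0.02, -0.06, -0.06 and -0.01 log2 units in that order of lists. Among other lists, 3 of 15 imprinted genes were called above SU5402 and 0 below. Of 28 mitosis genes 0 were called, with 0 above and 11 below at an unadjusted p under 0.05 (median difference -0.13). These values do not show that the treatments act alike.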

How the data were processed

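Total RNA of 16 arrays (12 cultures in 4 groups, among them untreated Ndst1/2-/- ES cells) was measured on Illumina bead arrays. The authors deposited a raw bead intensity and a detection p-value for each of 25697 probes per array, per the file headers. BeadStudio is named in the submitters' processing notes and its version was not given there. The authors' processed intensity table, in which 53.11% of the deposited values lie at the floor of 20, was used as an alternative only. For the probes' genome build, as for the rest of the authors' processing, details were not given in the sources used here.

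Intensities were normalized in limma 3.58.1 (R 4.3.3) by neqc: normexp background correction from the detection p-values, an offset of 16, quantile normalization and log2. The 2 arrays of culture 3 were averaged. The 13377 probes with a detection p under 0.01 in at least 3 of 12 cultures were tested, of which 12576 had a gene symbol (9107 genes) and 801 had none. A linear model with the 4 groups was fitted (lmFit and eBayes, 8 residual and 4.37 prior degrees of freedom), with Benjamini-Hochberg adjustment over all tested probes and a threshold of 0.05, and ± is the standard error of the fitted difference unless stated. Where several probes report a gene, its list entry is the brightest. A gene can stand in several lists. The script was tested on simulated data. The number of arrays limits the precision.

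Named genes were the 30 called in each direction with the largest change and cultures apart, the 10 among the brightest 20% of probes, the 12 differing most from SU5402, up to 10 detected in 1 group alone, and up to 4 called and 3 bright uncalled members of each gene list. A probe on no array of a group has a bound, computed from the dimmest detected signal of each array. The groups, lists and named genes were chosen with earlier results of these data known. Alternatives changed the background correction, offset, scaling, filter, source of values, groups in the fit, replicate block, array set, duplicate array and each culture in turn. Promoters came from RefSeq on GRCm38.p6, 1 per gene at its most upstream start, and 7414 of 9107 tested genes matched an entry.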

Additional observations from a re-analysis of the deposited data

How the results depend on the processing

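The 543 results were recomputed under up to 25 alternatives: 12977 values stayed on their side of the threshold, 372 lost the call and 139 gained it. The sign turned in 229 values, of 98 results, and 0 of these were called in either setting. Over all called probes the sign was kept by 99.61% with the authors' values, 99.95% within either array set and 100% in the other alternatives. Where only the filter, the groups in the fit, a replicate block or a culture of another group changed, the log2 change could not move. Its sign was then fixed in advance. Within array set A and B alone, with fewer arrays, 1223 and 1122 probes were called higher and 1037 and 1024 lower. At least 2-fold higher probes numbered 33 without background correction, 42 with an offset of 50 and 165 with the authors' processed values, and at least 2-fold lower ones 32 and 39 under the first 2 of these. Probes with chlorate above SU5402 numbered 98 under median scaling, 80 with only the 2 groups in the fit, 306 with the array set as a block, 16 and 3 within set A and B, and 126 with the second array of culture 3 alone. Those below numbered 39 with only the 2 groups, 211 with the block and 5 and 3 within the sets. The cause of the changes was not tested where fewer arrays do not show it. Leaving out a culture gave 1590 to 1909 probes higher, 1512 to 1897 lower, 89 to 100 at least 2-fold higher, 72 to 82 at least 2-fold lower, 88 to 210 above SU5402 and 64 to 146 below it. Deviations of chlorate and untreated cultures of the same number correlated at 0.0749, 0.0785 and 0.00735, so the numbers were not taken as pairs. A replicate block called 29.4% of probes, against 28.4% without it, with 96.4% of the calls kept.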

Other observations

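Further groups of transcription factors and cytoskeletal genes were called in both directions with chlorate, against 15.3% higher and 14.8% lower over all genes. Of 13 tested Kruppel-like factors 5 rose and 4 fell, with Klf8 up by 0.96 ± 0.13 log2 units and Klf2, a naive pluripotency factor, by 0.71 ± 0.06 (limma adjusted p = 1.06e-04 and 2.06e-06). Of 18 forkhead factors 1 rose and 5 fell, with Foxp1 at 7.18, 7.18 and 7.27 with chlorate against 8.0, 7.98 and 7.97 untreated (-0.77 ± 0.06, limma adjusted p = 9.29e-07) and Foxo1, a factor restrained by insulin signalling, at 7.29, 7.18 and 7.10 with chlorate against 7.88, 7.99 and 7.89 untreated (-0.73 ± 0.06, limma adjusted p = 1.69e-06). The groups did not overlap in either gene, as in nearly all called probes. Of 13 AP-1 and early response factors 6 rose: Klf4, Klf2, Klf6 (0.42 ± 0.08, limma adjusted p = 0.00131), Jun, Ier3 and Fos. Junb, a partner in AP-1, fell by 0.39 (limma adjusted p = 0.00107).

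Of 23 simple epithelium genes 8 rose (34.8%) and 5 fell (21.7%), against 15.3% and 14.8% of all genes. The keratin Krt42 rose by 1.0 ± 0.06 and Krt17 by 0.59 ± 0.07 (limma adjusted p = 2.46e-07 and 3.09e-05), while the bright keratin Krt18 was not called (0.12 ± 0.10). Of 11 cadherin genes 3 rose, Cdhr1 most (0.95 ± 0.06, limma adjusted p = 3.52e-07), and the protocadherin Pcdh1 fell by 0.96 (limma adjusted p = 1.51e-06). Of 15 genes of the hypoxia response 5 rose and 2 fell, with Ak4, a mitochondrial adenylate kinase, up by 0.66 ± 0.05 (limma adjusted p = 1.64e-06) and Bnip3l, a mitophagy receptor, not called (0.04 ± 0.06). Of 33 Polycomb and trithorax genes 5 rose (15.2%) and 3 fell (9.09%). Phf19, a Polycomb accessory protein, rose by 0.62 ± 0.08 and the Polycomb subunit Suz12 was not called (-0.00093 ± 0.06, limma adjusted p = 1.37e-04 and 0.992).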
